A study of Mus musculus with 12 samples.

Results

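Normal mouse bone marrow cells that received a retrovirus expressing sPrdm16 were compared with the same kind of cells that received a mock retrovirus. The groups were taken from the library titles and treatment labels, and they hold 6 of the 12 libraries in the study, 3 with sPrdm16 and 3 with mock. Both groups are labelled WT, so neither carries the MLL::AF9 vector of the other 6 libraries, which are used nowhere below. The labels give no age, strain, sort or time after transduction, and the only growth medium they describe, with 5 ng/ml IL-3, is given for the MLL::AF9 cells. The stated purpose of the wider study was the basis of drug resistance driven by sPrdm16, with cytarabine and metabolism named in its title.

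Prdm16 is a zinc finger regulator of transcription that is known for directing brown fat cell fate and for maintaining blood stem cells. Its short form, sPrdm16, lacks the PR domain at the start of the long form and is the form linked to myeloid leukaemia. Myeloid progenitors in marrow first make primary granule proteins such as myeloperoxidase, and later, as they stop dividing, the secondary granule proteins of neutrophils. Basophils, mast cells and eosinophils arise from related progenitors and carry their own proteases and granule proteins.

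Each library held between 17217123 and 18823650 counts, an even depth. Levels below are in CPM, counts as a share of the library total after scaling between libraries by the trimmed mean of M-values. A gene was called when edgeR's quasi-likelihood test over all 14063 tested genes gave a Benjamini-Hochberg adjusted p under 0.05. Whether the 3 replicates of a group were separate cultures or animals is not stated in the labels, and a p-value here reflects the spread between libraries, which may be technical. In bulk RNA, fewer cells of a type and less RNA per cell cannot be told apart. The first principal component of all tested genes held 67.0% of the variance and separated the groups. Nuclear protein-coding genes held 91.5% to 93.6% of counts in mock and 93.2% to 94.5% with sPrdm16, and structural RNAs held 1.90% to 2.46% and 1.41% to 2.04%. The structural class holds ribosomal and small RNAs, among them the ribosomal and transfer RNAs encoded by mitochondrial DNA. The 20 genes most abundant over all 6 libraries together, the same set in each, took 18.8% to 19.6% of counts in mock and 13.6% to 14.7% with sPrdm16.

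The targeted gene was checked first. Prdm16 (chr4:154316125-154636873, mm10) had 22, 18 and 0 counts in the mock libraries and 950, 708 and 793 counts in the sPrdm16 libraries. The groups did not overlap, as was true of 46.6% of all tested genes, and the level rose from 0.770 ± 0.674 CPM to 43.2 ± 4.36 CPM (SD, n = 3; log2 fold change 5.80, SE 0.44, adjusted p = 1.7e-07). Vector transcripts and transcripts of the gene's own locus were counted together. Without mock replicate 3, the library at 0, the log2 fold change was 5.22, and limma-voom on all libraries gave 6.99.

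Of the 14063 genes, 2463 rose (17.5%) and 2335 fell (16.6%), so 34.1% were called in either direction. These shares are the background for every count of list members called below. At least 2-fold changes were seen in 808 of the genes that rose and 782 of those that fell, and at least 4-fold changes in 226 and 333. The median log2 fold change over all genes was 0.01. When libraries were scaled by total counts alone, that median moved up by 0.17 and the split became 3668 rises against 1501 falls, with 71% of calls being rises in place of 51.3%. Changes are given below relative to the scaling by trimmed mean, and a gene list whose median lies within 0.17 below 0 turns positive on total counts.

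**Figure D1:**
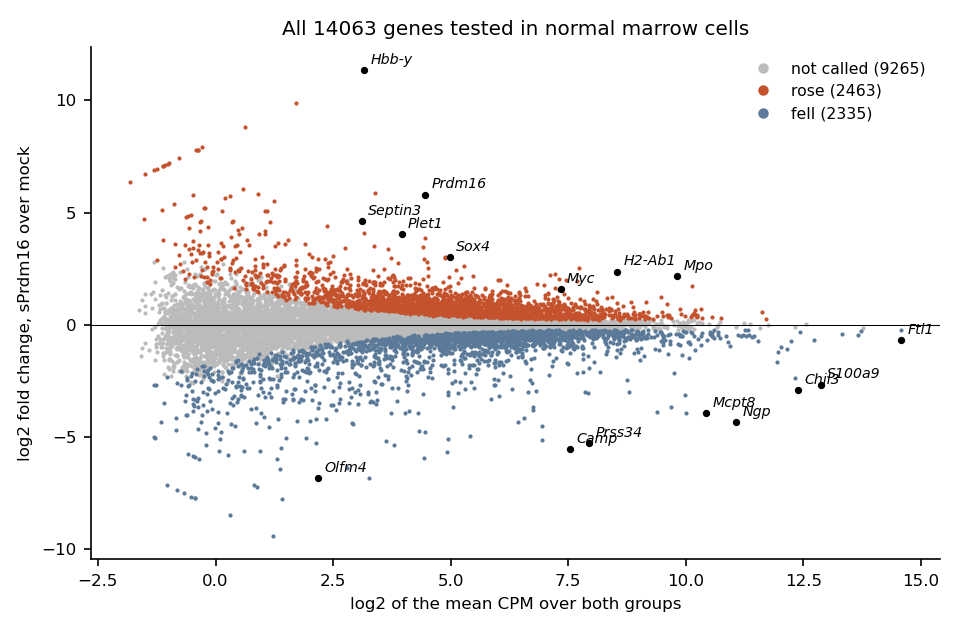
Each point is a gene, with the log2 of its mean CPM over both groups on the horizontal axis and its log2 fold change, sPrdm16 over mock, on the vertical axis. The 2463 genes that rose are orange, the 2335 that fell are blue, black points are labelled genes, and fitted values of genes at 0 in all libraries of a group, such as Hbb-y, depend on the model's prior count.

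Among called protein-coding genes whose groups did not overlap and whose higher mean reached 5 CPM, the largest rises were of genes at or below 4 CPM in the mock mean. Hbb-y, the embryonic beta-like globin (chr7:103851749-103853216), had 0 counts in all 3 mock libraries and 352, 367 and 294 counts with sPrdm16. Its level of 17.9 ± 1.88 CPM was at least 103.7-fold higher than the limit of 3 counts per mock library. Ccdc102a, a coiled-coil protein gene, was also at 0 in mock and reached 3.62, 9.36 and 6.76 CPM, at least 38.1-fold higher. These limits cover counting error only.

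Septin3, a member of the septin family of filament-forming GTPases, was at 0.228, 0.409 and 1.37 CPM in mock and at 15.7, 18.6 and 15.6 CPM with sPrdm16 (log2 fold change 4.62, SE 0.44, adjusted p = 2.1e-06). Plet1, a surface protein of epithelial progenitors, was at 1.43, 2.16 and 1.72 CPM in mock and at 27.9, 28.7 and 31.5 CPM with sPrdm16 (log2 fold change 4.05, SE 0.23, adjusted p = 8.0e-09). In neither gene did the groups overlap. S1pr3, a receptor for sphingosine-1-phosphate, rose by 4.39 on the log2 scale, and Serpina3f, a serine protease inhibitor, by 4.07. Aff3, a transcription elongation factor of the AF4 family, rose from 2.84 to 41.0 CPM, and Gria3, a glutamate receptor subunit, rose from 3.52 to 39.2 CPM. The other genes among the 15 largest rises were Cd79b, Kif1a, Ctnnd2, Tmem176a, B3gnt5 and Bex6, with log2 fold changes from 3.80 for Cd79b down to 3.36 for Bex6. Kif1a is a kinesin of axonal transport and Ctnnd2 a catenin of neurons, while Cd79b is part of the B cell receptor. Where a mock library decided the size, the log2 fold change was 6.35 for S1pr3 without mock replicate 2, 5.68 for Septin3 and 4.14 for B3gnt5 without mock replicate 3, and 5.17 for Cd79b without mock replicate 1.

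Several of the largest falls by the same rule were of granule and effector genes of mature granulocytes and mast cells. Olfm4, a glycoprotein found in a subset of neutrophils, was at 9.48, 9.59 and 7.95 CPM in mock and at 0, 0.163 and 0.0554 CPM with sPrdm16 (log2 fold change -6.85, SE 0.59, adjusted p = 6.2e-07). Tpsg1 and Tpsb2, both mast cell tryptases, had log2 fold changes of -6.83 and -5.94. Alox15, the 15-lipoxygenase typical of eosinophils, had a log2 fold change of -6.37. Tpsg1, Alox15 and the keratin gene Krt83 had counts in sPrdm16 replicate 2 (9, 9 and 6) and 0 in the other sPrdm16 libraries, so their fitted fold changes rest on that library and on the prior count. Without sPrdm16 replicate 1 they were -6.23, -5.77 and -4.91, and without replicate 2, with the group at 0, no size can be given. Without replicate 2, the value of Olfm4 was -8.09. The remaining genes of the 15 largest falls were Cma1, Camp, Skap1, Cobl, Prss34, Tph1, Prg2, Retnlg, Bace2 and Ccr10, with log2 fold changes from -5.69 for Cma1 to -5.05 for Ccr10. Tph1 makes serotonin, Skap1 is an adaptor of integrin signalling, Cobl nucleates actin, and Ccr10 is a chemokine receptor. Single sPrdm16 libraries also set the size of these low values, with -7.39 for Ccr10 without replicate 2, -8.04 for Cobl and -5.74 for Bace2 without replicate 3, and -6.58 for Tph1 without replicate 1.

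**Figure D2:**
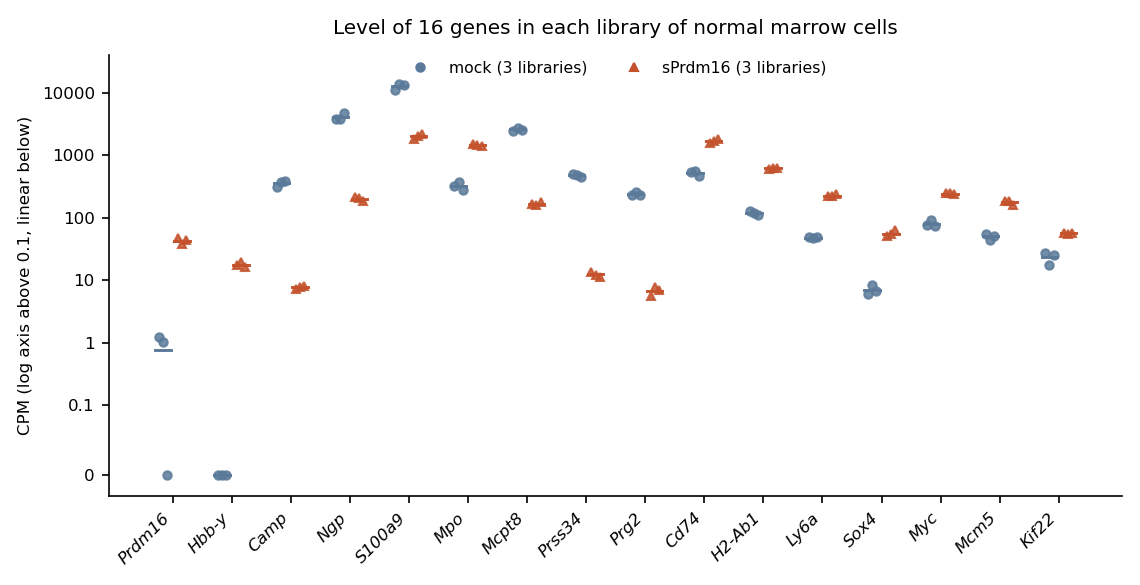
Points are CPM in each of the 3 mock (circles) and 3 sPrdm16 (triangles) libraries for 16 genes, with bars at the group means; the axis is logarithmic above 0.1 and linear below. In each of the 16 genes the groups are separate, as in 46.6% of all tested genes: Camp lies at 317 to 394 CPM in mock and 7.2 to 8.15 CPM with sPrdm16, and Mpo at 278 to 383 and 1410 to 1534 CPM.

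Neutrophil granule genes split by granule type. Among the 17 tested genes of secondary and tertiary granules, 15 fell and 0 rose (median log2 fold change -2.16), and their summed level went from 19174 to 20208 CPM in mock to 3604 to 3819 CPM with sPrdm16. Camp, the cathelicidin antimicrobial peptide, was at 317, 382 and 394 CPM in mock and at 7.2, 7.84 and 8.15 CPM with sPrdm16. That 47.1-fold difference left no overlap between the groups (log2 fold change -5.56, SE 0.12, adjusted p = 3.2e-13). Ngp, a neutrophil granule protein of the cathelicidin kind, was at 3769, 3792 and 4758 CPM in mock and at 213, 207 and 184 CPM with sPrdm16 (log2 fold change -4.35, SE 0.12, adjusted p = 1.1e-12). Ltf, lactoferrin, was at 1261, 1297 and 1216 CPM in mock and at 84.6, 86.5 and 79.2 CPM with sPrdm16 (log2 fold change -3.91, SE 0.09, adjusted p = 3.2e-13). Both genes were lower in every sPrdm16 library than in any mock library.

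Chil3, a chitinase-like protein, fell 7.54-fold from 9454 CPM, and Lcn2, the iron-scavenging lipocalin, fell 4.4-fold from 1398 CPM. The gelatinase gene Mmp9 fell 4.46-fold. The 2 tested members that were not called were the collagenase gene Mmp8, at 928 ± 65.7 CPM in mock and 902 ± 82.7 CPM with sPrdm16 (SD, n = 3), with overlapping groups, and a surface protease gene.

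Primary granule genes more often went the other way. Of 8 tested, 5 rose and 2 fell, at a median log2 fold change of 0.63. Mpo, myeloperoxidase, was at 326, 383 and 278 CPM in mock and at 1534, 1468 and 1410 CPM with sPrdm16. All sPrdm16 libraries were above all mock libraries (4.47-fold; log2 fold change 2.16, SE 0.11, adjusted p = 1.7e-09). The serine protease genes Elane and Prtn3 rose 1.53-fold and 1.56-fold, and Ms4a3, a marker of granulocyte and monocyte progenitors, rose 1.73-fold. The calls of Elane and Prtn3 were lost when tested against a fold of 1.5. Ctsg, cathepsin G, was at 334 ± 45 CPM in mock and 342 ± 11.3 CPM with sPrdm16, and was not called. Serpinb1a, which inhibits these proteases, fell from 773 to 263 CPM.

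Promoter windows are shown for genes of these and later groups that moved together, from the RefSeq promoter table (build GRCm38.p6), which covers 250 bases before to 50 bases after a gene start. A window within 1000 bases of the gene start was found for 9090 of the 14063 tested genes. For the granule genes the capitals mark TTGCNNAA, a C/EBP-like motif searched on both strands. Ngp is on chr9:110419558-110419857 and Ltf on chr9:111019042-111019341, both on the plus strand.
Ngp: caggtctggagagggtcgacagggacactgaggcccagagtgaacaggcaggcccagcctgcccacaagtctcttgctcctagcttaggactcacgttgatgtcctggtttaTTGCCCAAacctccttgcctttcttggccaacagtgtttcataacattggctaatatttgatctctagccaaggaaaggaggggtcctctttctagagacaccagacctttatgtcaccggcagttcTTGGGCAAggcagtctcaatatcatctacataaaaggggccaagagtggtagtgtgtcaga
Ltf: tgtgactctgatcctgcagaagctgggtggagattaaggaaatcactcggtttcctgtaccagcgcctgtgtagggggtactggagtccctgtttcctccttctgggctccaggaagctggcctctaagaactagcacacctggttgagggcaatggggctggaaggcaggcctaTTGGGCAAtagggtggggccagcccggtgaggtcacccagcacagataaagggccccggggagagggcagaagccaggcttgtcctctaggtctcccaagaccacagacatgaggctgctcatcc
The motif was in 6 of the 12 secondary and tertiary granule genes with a window and in 8.46% of all windows. It was in 8.54% of the windows of genes that rose and 11.7% of those of genes that fell. A match is a string of letters, not a binding site.

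Other products of mature neutrophils fell with the secondary granules. Of 20 surface and effector genes 18 fell and 2 rose. S100a9 and S100a8, the subunits of calprotectin and among the most abundant transcripts in mock, fell from 12878 ± 1467 to 2025 ± 212 CPM and from 8524 ± 1432 to 1664 ± 112 CPM (SD, n = 3). Retnlg, a resistin-like protein, fell 34.6-fold, the formyl peptide receptor gene Fpr1 fell 8.84-fold and the chemokine receptor gene Cxcr2 fell 5.30-fold. Ly6g, the surface antigen used to define mouse neutrophils, fell from 8.57 to 1.26 CPM. Of 9 tested S100 genes 8 fell, S100a6 from 1566 to 568 CPM and S100a11 from 956 to 514 CPM among them. Of 8 tested stefins and cystatins, cytosolic and secreted inhibitors of cathepsins, 7 fell. Stfa3 was at 146, 165 and 179 CPM in mock and at 7.75, 8.28 and 7.98 CPM with sPrdm16 (log2 fold change -4.35, SE 0.13, adjusted p = 3.4e-12), groups that did not overlap. The stefin A genes are near-identical copies between which reads may be divided, so their separate values are uncertain. Cst3, cystatin C, was at 686 ± 25.8 and 733 ± 31.6 CPM and was not called.

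The NADPH oxidase, which makes superoxide in phagocytes, had 6 of 10 tested subunits and partners lower and 1 higher. Cybb, its catalytic subunit, fell from 352 to 132 CPM, and the cytosolic subunit Ncf1 fell from 450 to 305 CPM.

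Mast cell, basophil and eosinophil genes mostly fell. Of 32 tested mast cell and basophil genes, 27 fell and 3 rose (median log2 fold change -1.47), and all 7 called eosinophil genes of 8 tested fell (median -3.77). Mcpt8, the basophil protease, was at 2461, 2755 and 2595 CPM in mock and at 167, 160 and 182 CPM with sPrdm16. The groups did not overlap (15.4-fold lower; log2 fold change -3.94, SE 0.09, adjusted p = 3.4e-13). Prss34, another basophil serine protease, was at 510, 484 and 454 CPM in mock and at 13.6, 12.2 and 11.5 CPM with sPrdm16 (log2 fold change -5.28, SE 0.11, adjusted p = 2.4e-13). Cpa3, the mast cell carboxypeptidase, was at 1924, 1936 and 1615 CPM in mock and at 225, 206 and 190 CPM with sPrdm16 (log2 fold change -3.14, SE 0.10, adjusted p = 1.4e-11). Every sPrdm16 library was below every mock library in both.

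The high-affinity IgE receptor was lower in its alpha chain gene Fcer1a (82.8 to 2.69 CPM), its beta chain gene Ms4a2 (54.4 to 6.70 CPM) and its shared gamma chain gene Fcer1g (1603 to 736 CPM). Il1rl1, the receptor for IL-33, fell 9.91-fold, and the cytokine genes Il4 and Il6 fell 5.76-fold and 3.48-fold. Gata2, a transcription factor of mast cells and early progenitors, was at 292, 275 and 271 CPM in mock and at 89.0, 86.2 and 76.4 CPM with sPrdm16 (log2 fold change -1.74, SE 0.09, adjusted p = 3.5e-09). Kit, the stem cell factor receptor shared by mast cells and progenitors, instead rose from 8.54 ± 2.94 to 19.2 ± 2.34 CPM. Hpgds, the prostaglandin D synthase of mast cells, was at 48.9 ± 3.48 and 57.3 ± 4.55 CPM and was not called.

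Among eosinophil genes, Prg2, the major basic protein, was at 229, 260 and 231 CPM in mock and at 5.71, 7.73 and 7.09 CPM with sPrdm16 (35.1-fold lower; log2 fold change -5.13, SE 0.13, adjusted p = 8.6e-13). Its groups did not overlap. Epx, eosinophil peroxidase, fell from 18.2 ± 4.87 to 3.66 ± 1.84 CPM, and Cebpe, a transcription factor of late granulocytes, fell from 29.0 to 11.2 CPM.

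The capitals in the window of Prss34 (chr17:25298144-25298443, plus strand) mark AGATAA, the core read by GATA factors, again searched on both strands.
Prss34: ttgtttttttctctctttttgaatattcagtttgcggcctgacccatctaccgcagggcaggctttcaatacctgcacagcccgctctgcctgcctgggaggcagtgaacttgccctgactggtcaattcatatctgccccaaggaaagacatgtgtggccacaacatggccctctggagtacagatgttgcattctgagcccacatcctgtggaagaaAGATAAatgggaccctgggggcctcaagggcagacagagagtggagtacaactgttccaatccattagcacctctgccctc
It was in 8 of 25 mast cell and basophil genes with a window, against 6.3% of all windows.

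**Figure D3:**
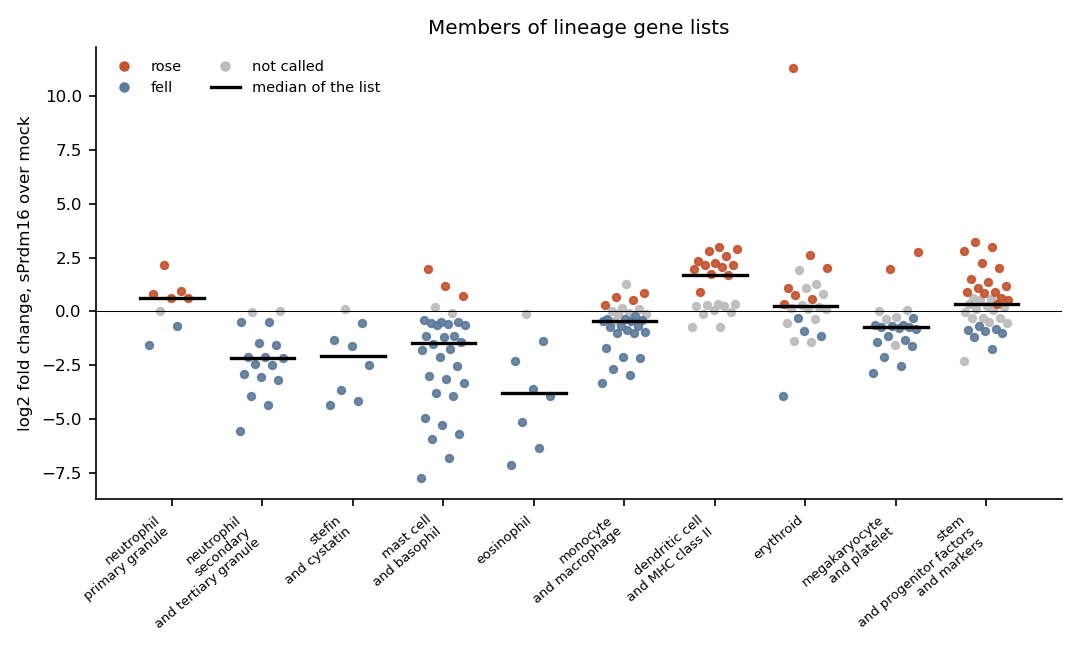
Each point is a tested member of a lineage gene list, with its log2 fold change on the vertical axis; orange members rose, blue members fell, grey members were not called and bars are list medians. The bars of the secondary granule, stefin, mast cell and eosinophil lists lie below -1.4 and that of the MHC class II list at 1.71. The erythroid point above 10 is Hbb-y, whose fitted value depends on the prior count, and placing members at 0 in a whole group at their bound leaves these medians unchanged.

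Monocyte and macrophage genes moved less. Of 31 tested, 19 fell and 4 rose (median log2 fold change -0.44), and their summed level ranged from 38711 to 43283 CPM in mock and from 35999 to 37484 CPM with sPrdm16. The scavenger receptor gene Msr1 fell 4.42-fold, and the complement genes C1qb and C1qc fell from 7.66 and 4.92 CPM to 0.996 and 0.486 CPM, the log2 fold change of C1qc going from -3.33 to -4.05 without sPrdm16 replicate 2. Ly6c2 and Ccr2, both carried by inflammatory monocytes, fell 2.03-fold and 1.82-fold. Csf1r, the macrophage growth factor receptor, was at 268, 252 and 210 CPM in mock and at 312, 293 and 281 CPM with sPrdm16. The rise was small (log2 fold change 0.28, SE 0.10, adjusted p = 0.0387), and leaving out any library but mock replicate 1 ended the call. Cx3cr1 was below the filter on low counts.

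Sensors and signals of inflammation fell more often than they rose. Of 29 tested Toll-like receptors and adaptors 11 fell and 1 rose. Cd14, the co-receptor for lipopolysaccharide, fell from 266 to 138 CPM, its partner Ly96 fell from 20.1 to 6.74 CPM and Tlr2 fell from 155 to 82.5 CPM. Of 33 genes of the NF-kB and inflammatory list 15 fell and 3 rose, Nfkbia, the NF-kB inhibitor, from 406 to 221 CPM. Of 16 CC and CXC chemokines 11 fell and 2 rose. Ccl6 fell from 5968 to 1894 CPM, Ccl9 from 1118 to 448 CPM and Ccl3 from 334 to 116 CPM. Of the 2 that rose, Ccl24, an eosinophil chemoattractant, was at 75.5, 81.5 and 61.3 CPM in mock and 214, 220 and 241 CPM with sPrdm16 (log2 fold change 1.63, SE 0.11, adjusted p = 6.2e-08). Its groups did not overlap. The other, Ccl22, named after its value was seen, rose from 1.75 to 5.86 CPM, a call lost without sPrdm16 replicate 2 (log2 fold change 1.54 in place of 1.74). Of 22 receptors for chemokines and other attractants 13 fell and 2 rose, the complement receptor gene C5ar1 falling 6.45-fold.

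Of 37 tested inhibitory and paired myeloid receptors 20 fell and 2 rose, led by Siglece and Pilrb2, with log2 fold changes of -3.45 and -2.84. Of 7 Fc gamma receptor genes 4 fell and 0 rose. C-type lectin receptors were mixed, with 11 of 24 lower and 4 higher. Among those that rose, the galactose-binding lectin genes Mgl2 and Clec10a went from 70.5 to 279 CPM and from 35.7 to 99.7 CPM. Of 27 tested complement and coagulation genes 15 fell and 1 rose, and the protective surface protein gene Cd55 fell 4.48-fold.

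Genes of MHC class II antigen presentation rose together. Of 23 tested genes of the dendritic cell and MHC class II list 13 rose and 0 fell (median log2 fold change 1.71), and the summed level went from 1103 to 1304 CPM in mock to 3356 to 3760 CPM with sPrdm16. H2-Ab1, the beta chain of the I-A molecule, was at 129, 122 and 110 CPM in mock and at 596, 635 and 631 CPM with sPrdm16 (5.16-fold higher; log2 fold change 2.37, SE 0.09, adjusted p = 8.3e-11). Cd74, the invariant chain that escorts class II molecules, was at 539, 561 and 471 CPM in mock and at 1581, 1696 and 1852 CPM with sPrdm16 (log2 fold change 1.71, SE 0.09, adjusted p = 4.8e-09). Ciita, the coactivator that switches on class II genes, was at 4.97, 5.96 and 4.12 CPM in mock and at 34.5, 35.7 and 44.3 CPM with sPrdm16 (log2 fold change 2.93, SE 0.20, adjusted p = 6.3e-08). In each gene all sPrdm16 libraries lay above all mock libraries.

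H2-Aa and H2-Eb1 rose 3.91-fold and 4.85-fold, and H2-DMb2, which helps load peptide, rose from 16.3 to 73.2 CPM. H2-DMa was at 147 ± 7.89 CPM with sPrdm16 and was not called (log2 fold change 0.25, adjusted p = 0.0772). Other dendritic cell genes were less abundant. Itgax, the CD11c integrin, was at 41.4 ± 3.9 and 38.3 ± 2.82 CPM and was not called, and Siglech had between 0 and 3 counts in every library. Flt3, also a progenitor receptor, rose from 0.250 ± 0.167 to 1.80 ± 0.845 CPM (log2 fold change 2.81), a call lost without sPrdm16 replicate 2 (2.68) or replicate 3 (2.53).

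The windows of H2-Aa (chr17:34287774-34288073, minus strand) and H2-Eb1 (chr17:34305617-34305916, plus strand) are shown because class II promoters share a conserved Y box. The capitals mark CTGATTGG, which holds the reverse of CCAAT and was searched on both strands.
H2-Aa: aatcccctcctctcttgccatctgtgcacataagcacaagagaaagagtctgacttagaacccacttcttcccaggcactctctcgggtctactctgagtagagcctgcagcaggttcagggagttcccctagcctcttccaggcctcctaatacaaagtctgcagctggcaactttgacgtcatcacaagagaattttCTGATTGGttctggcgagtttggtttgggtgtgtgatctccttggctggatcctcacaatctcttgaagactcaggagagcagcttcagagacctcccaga
H2-Eb1: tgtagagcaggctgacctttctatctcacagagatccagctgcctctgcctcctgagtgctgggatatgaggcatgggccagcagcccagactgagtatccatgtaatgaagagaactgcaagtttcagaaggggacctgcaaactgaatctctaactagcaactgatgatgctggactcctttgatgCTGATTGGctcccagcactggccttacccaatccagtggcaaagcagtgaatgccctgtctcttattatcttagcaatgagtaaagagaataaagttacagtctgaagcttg
The motif was in 3 of 12 genes of the list with a window and in 6.35% of all windows.

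Class I presentation changed less. Of 24 class I and immunoproteasome genes 11 rose and 2 fell, with a median of 0.31. The peptide transporter genes Tap1 and Tap2 rose 1.66-fold and 1.66-fold, and the immunoproteasome subunit genes Psmb8 and Psmb9 rose from 137 to 262 CPM and from 56.7 to 88.2 CPM. The class I heavy chain gene H2-D1 fell from 2924 to 2043 CPM, and B2m was at 1090 ± 39.3 and 998 ± 5.03 CPM and was not called. Of 45 interferon response genes 12 rose and 2 fell. Irf7, a factor that amplifies interferon signalling, rose from 21.2 to 53.9 CPM, the antiviral sensor gene Oas1a from 22.6 to 48.8 CPM and Irf1 from 24.4 to 42.3 CPM. Cxcl10, an interferon-induced chemokine, fell from 9.93 to 1.98 CPM.

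Globin genes did not change as a block. Hbb-bt, an adult beta globin, was at 57.8, 57.7 and 71.2 CPM in mock and at 236, 253 and 265 CPM with sPrdm16 (log2 fold change 2.02, SE 0.11, adjusted p = 3.0e-09). Its neighbour Hbb-bs was at 118, 151 and 155 CPM in mock and at 70.1, 76.3 and 82.9 CPM with sPrdm16 (log2 fold change -0.88, SE 0.12, adjusted p = 4.4e-05). The groups did not overlap in either gene, although the direction was opposite. The alpha globin gene Hba-a1 rose 1.71-fold, and its near-identical copy Hba-a2 was not called, at 63.9 ± 7.88 and 70.9 ± 7.88 CPM. Reads shared between such copies may be divided between them, so the separate values of each pair are uncertain.

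Of the erythroid transcription factors, Klf1 rose from 0.751 ± 0.275 to 4.73 ± 0.865 CPM, while Gata1 fell from 27.2 ± 5.20 to 12.2 ± 1.5 CPM. Over the whole erythroid list 7 of 24 tested genes rose and 4 fell. Of 22 megakaryocyte and platelet genes 15 fell and 2 rose (median log2 fold change -0.72). Pf4, platelet factor 4, fell from 37.8 to 17.2 CPM and the thrombin receptor genes F2r and F2rl2 fell 2.68-fold and 3.0-fold.

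Among 37 tested stem and progenitor genes 15 rose and 7 fell. Ly6a, the Sca-1 antigen of stem cells, was at 49.3, 46.9 and 49.0 CPM in mock and at 221, 222 and 242 CPM with sPrdm16 (4.72-fold higher; log2 fold change 2.24, SE 0.09, adjusted p = 2.4e-10). Sox4, a transcription factor of progenitors and leukaemias, was at 5.99, 8.36 and 6.69 CPM in mock and at 51.3, 54.3 and 63.2 CPM with sPrdm16 (8.02-fold higher; log2 fold change 3.0, SE 0.17, adjusted p = 8.4e-09). The groups overlapped in neither gene. Id3 and Id1, which block basic helix-loop-helix factors, rose by 2.03 and 0.53 on the log2 scale, while Id2 fell from 445 to 197 CPM. Cd34 was at 8.56 ± 2.5 and 12.6 ± 1.5 CPM with overlapping groups and was not called.

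Of the Meis and Pbx homeobox factors, Meis1 rose from 5.48 to 10.2 CPM (log2 fold change 0.90), whereas Pbx2 and Pbx3 fell 1.83-fold and 3.3-fold. The call of Meis1 was lost without mock replicate 1 (0.75), sPrdm16 replicate 1 (0.86) or sPrdm16 replicate 2 (0.89). Of 26 genes in this list, which also holds the Hoxa and Hoxb clusters, 20 were below the filter on low counts. Of 47 myeloid transcription factors 15 fell and 6 rose, with a median of -0.16 that turned to 0.01 on total counts. Ets1 was at 31.3, 27.4 and 32.9 CPM in mock and at 1.59, 2.83 and 1.61 CPM with sPrdm16 (log2 fold change -3.92, SE 0.25, adjusted p = 3.1e-08), with no overlap, and Klf5 fell 3.99-fold. Stat5a, which carries IL-3 signals, was at 32.0, 38.9 and 27.1 CPM in mock and at 79.1, 85.6 and 77.8 CPM with sPrdm16 (log2 fold change 1.31, SE 0.14, adjusted p = 5.4e-06), and here too the groups were separate.

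Markers of lymphoid, stromal and endothelial cells were also examined. Cd79a and Pax5 of B cells, Cd3e and Ncr1 of T and NK cells, and Cdh5, Cxcl12, Col1a2 and Col3a1 of endothelial and stromal cells had at most 3 counts in any library. The summed level of the B cell list went from 12.4 to 20.3 CPM in mock to 69.0 to 85.5 CPM with sPrdm16, that of the T and NK cell list from 192 to 199 CPM to 173 to 186 CPM, and that of the stromal list from 82.7 to 86.3 CPM to 118 to 144 CPM. Of 4, 7 and 9 tested members 2, 1 and 5 rose and 0, 1 and 2 fell, and the part of these cell types in the other results was not tested. Cd79b and Ighm, both B cell genes, nevertheless rose, Cd79b from 0.381 to 5.40 CPM and Ighm from 10.8 to 67.2 CPM. Thy1, Eng, Pdgfrb and Tie1, known from stromal or endothelial cells, rose from 0.114 to 2.73 CPM in mock to 4.02 to 8.28 CPM with sPrdm16. The log2 fold change of Tie1 was 5.05, or 9.20 without mock replicate 3, and that of Pdgfrb was 2.52, or 3.15 without mock replicate 1.

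Genes of cell division rose broadly. Of 61 tested genes of DNA replication and S phase 42 rose and 1 fell (median log2 fold change 0.76), and of 66 genes of G2 and mitosis 52 rose and 2 fell (median 0.76). Mcm5, a subunit of the helicase that unwinds replication origins, was at 56.2, 44.9 and 51.2 CPM in mock and at 186, 185 and 163 CPM with sPrdm16 (3.51-fold higher; log2 fold change 1.81, SE 0.11, adjusted p = 1.5e-08). Kif22, a kinesin that moves chromosomes, was at 27.1, 17.7 and 25.3 CPM in mock and at 57.5, 54.9 and 57.1 CPM with sPrdm16 (log2 fold change 1.27, SE 0.16, adjusted p = 2.4e-05). Both genes were higher in every sPrdm16 library than in any mock library.

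The helicase partners Mcm2, Mcm6 and Mcm7 rose 2.84-fold, 2.89-fold and 3.14-fold, and the polymerase delta subunit genes Pold1 and Pold2 rose 2.5-fold and 2.74-fold. The mitotic kinase genes Aurkb and Bub1b rose from 25.4 to 57.1 CPM and from 21.6 to 48.0 CPM. Pcna, the sliding clamp, was at 125 ± 4.73 CPM in mock and was not called (log2 fold change -0.03), and the transcription factor gene E2f2 fell from 60.3 to 24.2 CPM. Of 49 tested replication-dependent histone genes 20 rose and 4 fell (median 1.13), with Hist1h2ap rising from 421 to 993 CPM and the linker histone gene H1f5 from 12.3 to 38.1 CPM. Many histone genes are close copies, so their separate values are uncertain.

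Windows of Kif22 (chr7:127042371-127042670, minus strand) and Mcm5 (chr8:75109259-75109558, plus strand) are shown for these lists. In Kif22 the capitals mark TTTGAA, the cell cycle homology region of mitotic promoters, found on the opposite strand, and in Mcm5 they mark TTTNNCGC, an E2F-like motif, whose matches overlap there.
Kif22: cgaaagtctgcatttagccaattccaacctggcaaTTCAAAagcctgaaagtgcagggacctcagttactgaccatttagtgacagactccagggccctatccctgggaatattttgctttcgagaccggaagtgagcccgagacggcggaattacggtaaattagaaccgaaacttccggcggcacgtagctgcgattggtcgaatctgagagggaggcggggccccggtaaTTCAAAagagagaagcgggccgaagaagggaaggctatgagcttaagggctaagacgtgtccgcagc
Mcm5: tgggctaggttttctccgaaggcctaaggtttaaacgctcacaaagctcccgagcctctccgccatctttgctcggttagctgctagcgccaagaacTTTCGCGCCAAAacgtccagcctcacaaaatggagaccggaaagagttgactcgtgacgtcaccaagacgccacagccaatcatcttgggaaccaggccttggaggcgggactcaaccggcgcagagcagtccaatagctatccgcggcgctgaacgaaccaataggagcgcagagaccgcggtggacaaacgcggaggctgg
TTTGAA was in 36 of 52 G2 and mitosis genes with a window, against 12.2% of all windows and 15.4% of those of genes that rose. TTTNNCGC was in 19 of 50 replication genes with a window, against 9.06% of all windows.

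Of 25 G1 cyclins and inhibitors of their kinases, a list that mixes drivers and brakes of division, 12 fell and 4 rose. Cdkn2a and Cdkn2b, inhibitors of cyclin D kinases, were low and fell further, Cdkn2a from 2.55 ± 0.841 to 0.106 ± 0.00618 CPM and Cdkn2b from 12.6 ± 5.74 to 1.73 ± 0.287 CPM. Ccnd3, cyclin D3, fell from 543 to 283 CPM, and its kinase gene Cdk4 rose from 215 to 343 CPM. Of 61 DNA repair genes 27 rose and 0 fell. Among them Parp1, a sensor of strand breaks, rose from 32.9 to 82.0 CPM and Apex1 of base excision repair from 39.7 to 108 CPM. Of 33 targets of p53 tested 13 fell and 4 rose, with a median of -0.14 that turned to 0.03 on total counts. Plk3, Perp and Ccng1 fell 2.10-fold, 2.25-fold and 1.69-fold. Trp53 itself rose from 80.6 ± 5.91 to 129 ± 6.11 CPM.

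Ribosome biogenesis genes rose in nearly every case, with 40 of 47 tested genes higher and 2 lower (median 0.76). Myc, the transcription factor that drives ribosome production, was at 77.0, 91.2 and 74.2 CPM in mock and at 247, 246 and 237 CPM with sPrdm16 (3.01-fold higher; log2 fold change 1.59, SE 0.10, adjusted p = 2.0e-08). Its groups did not overlap. The nucleolar protein genes Nolc1, Nop56 and Dkc1 rose 2.54-fold, 2.05-fold and 2.22-fold, and Mxd1, a repressor that competes with Myc, fell from 217 to 70.6 CPM. CACGTG, the E box bound by Myc, was in 11 of 40 promoter windows of this list and in 10.5% of all windows.

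Of 36 aminoacyl-tRNA synthetase genes 27 rose and 1 fell, with Vars up from 147 to 308 CPM and Kars from 74.7 to 134 CPM. The gene that fell, Lars2, went from 6216 ± 1617 to 2903 ± 373 CPM and its level moved with the libraries' share of structural RNA given above. The part of that share in the result was not tested. Of 73 translation factors 25 rose and 6 fell. Of 89 cytosolic ribosomal protein genes 21 rose and 3 fell, and their median of 0.06 was near that of all genes. Rpl3 rose from 538 to 1012 CPM.

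Nucleotide supply genes also rose, with 31 of 43 genes of nucleotide synthesis and one-carbon metabolism higher and 2 lower (median 0.71). Shmt1, cytosolic serine hydroxymethyltransferase, was at 11.6, 12.4 and 10.5 CPM in mock and at 56.9, 50 and 45.8 CPM with sPrdm16 (4.43-fold higher; log2 fold change 2.15, SE 0.15, adjusted p = 1.1e-07). Impdh2, which commits purines to guanine nucleotides, was at 34.5, 33.7 and 31.8 CPM in mock and at 106, 122 and 114 CPM with sPrdm16 (3.41-fold higher; log2 fold change 1.77, SE 0.11, adjusted p = 2.1e-08). Neither gene's groups overlapped. The mitochondrial enzyme gene Shmt2 rose from 147 to 407 CPM, Ahcy, which clears S-adenosylhomocysteine, from 14.3 to 60.4 CPM, and Tyms, thymidylate synthase, from 34.8 to 78.0 CPM.

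Cytarabine is a cytosine nucleoside taken up by nucleoside carriers, activated by kinases and inactivated by deaminases. Of 20 tested genes of its handling 8 rose and 6 fell. The deoxycytidylate deaminase gene Dctd was at 3.20, 1.81 and 1.26 CPM in mock and at 11.4, 10.5 and 13.4 CPM with sPrdm16 (5.60-fold higher; log2 fold change 2.49, SE 0.35, adjusted p = 6.9e-05), without overlap. The carrier gene Slc29a2 rose from 1.34 to 5.98 CPM, and Slc29a1, the main nucleoside carrier, was at 58.2 ± 9.99 and 74.0 ± 1.68 CPM and was not called (adjusted p = 0.0513), although DESeq2, limma-voom, both other filters on low counts, total counts, the fit with the replicate number as a block (log2 fold change 0.36) and the fit without mock replicate 1 called it. The ribonucleotide reductase genes Rrm1 and Rrm2 rose 1.97-fold and 1.69-fold. Among the falls, named after their values were seen, Dck, the kinase that activates cytarabine, went from 26.7 to 14.9 CPM and Samhd1, which breaks down the activated drug, from 179 to 120 CPM.

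Of 27 genes of the tricarboxylic acid cycle 11 rose and 0 fell (median 0.24), with Idh2 up from 133 to 296 CPM and Idh3g from 97.2 to 190 CPM. Of 90 nuclear-encoded respiratory chain genes 35 fell and 11 rose (median -0.20). Cyc1, Ndufv1 and the ATP synthase subunit gene Atp5b rose 1.68-fold, 1.65-fold and 1.58-fold, and Ndufb3 fell 1.54-fold. Among nuclear protein-coding genes of at least 20 CPM, those up to 1000 bases long had 38 rises and 139 falls of 345 genes. Of the respiratory chain genes in that length class 1 of 47 rose and 22 fell, and of the longer genes 10 of 43 rose and 13 fell. Cytosolic ribosomal protein genes of that class had 7 rises and 2 falls of 42, and longer ones 14 and 1 of 47. Mitochondrial ribosomal protein genes of that class had 0 rises and 3 falls of 19, and longer ones 17 and 6 of 61. The part of gene length in these results was not tested. Of the 13 proteins encoded by mitochondrial DNA, 9 had lower transcripts and 0 higher (median -0.48), mt-Co1 from 6041 ± 850 to 3646 ± 474 CPM. Reads shared with nuclear copies of mitochondrial genes may be divided between them, so these levels are uncertain. Mitochondrial protein-coding genes held 1.51% to 2.10% of counts in mock and 1.26% to 1.58% with sPrdm16. Within each group the order over libraries was that of the structural RNA share. That share includes mitochondrial ribosomal and transfer RNAs, so the shared order is not an independent observation. Of 80 mitochondrial ribosomal protein genes 17 rose (21.25%) and 9 fell (11.25%), beside 17.5% and 16.6% of all tested genes.

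**Figure D4:**
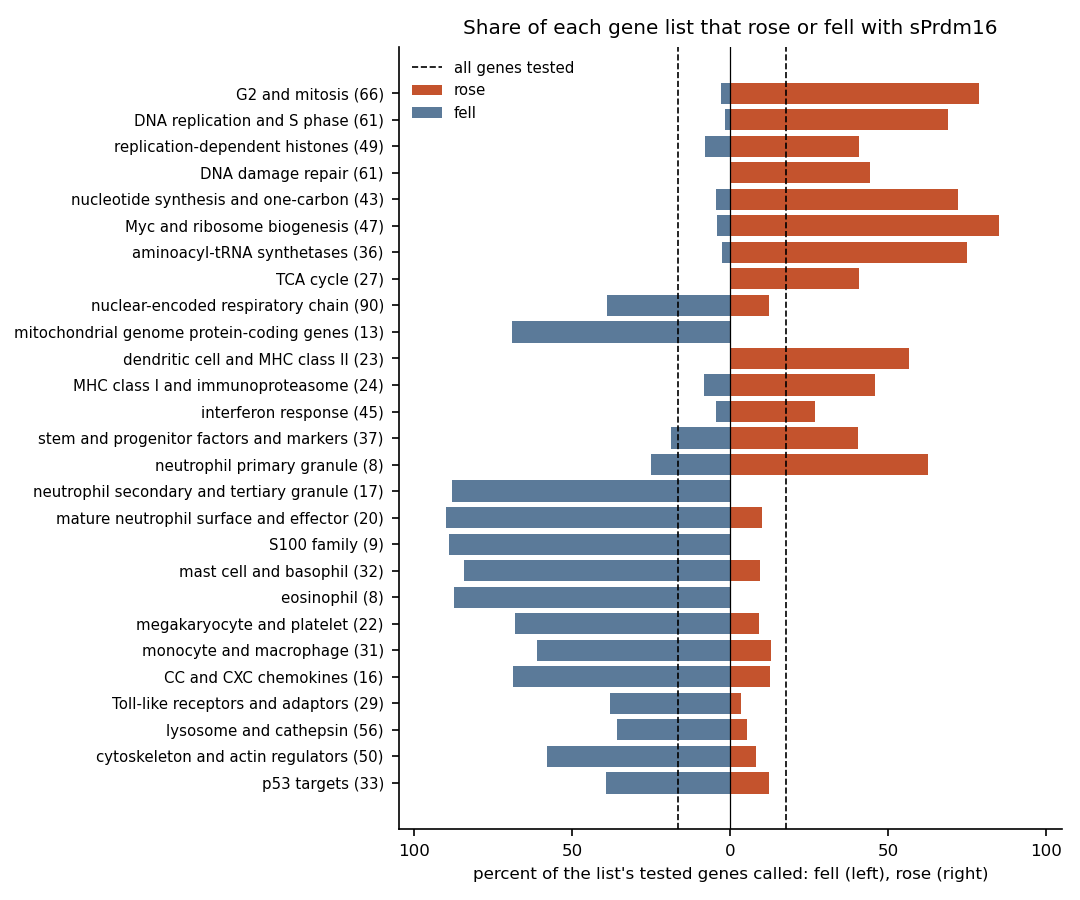
Bars give the percent of each list's tested genes that rose (right, orange) or fell (left, blue), with the number tested in brackets and dashed lines at the share of all tested genes, 17.5% for rises and 16.6% for falls. Ribosome biogenesis, mitosis, tRNA synthetase, nucleotide and replication lists reach furthest right, and neutrophil, S100, eosinophil and mast cell lists furthest left.

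In carbon metabolism, 15 of 37 genes of glycolysis and glycogen rose and 6 fell. The hexokinase gene Hk3 rose from 379 to 766 CPM and Pdk1, which restrains pyruvate entry into mitochondria, from 19.6 to 44.6 CPM, while the glucose carrier gene Slc2a3 fell from 83.4 to 33.1 CPM. Of 26 genes of fatty acid and lipid synthesis 7 rose and 6 fell. Fasn, fatty acid synthase, rose from 73.7 to 185 CPM and the desaturase gene Fads3 from 2.95 to 23.4 CPM, while Dgat1 and Dgat2, which make triglyceride, fell 3.5-fold and 3.30-fold. Cholesterol synthesis and uptake had 3 rises and 3 falls among 32 genes. Of 49 genes of fatty acid and branched-chain oxidation 14 rose and 5 fell, and the branched-chain aminotransferase gene Bcat1 rose from 6.4 to 21.2 CPM.

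Among 46 glutathione, thioredoxin and antioxidant genes 13 fell (28.3%) and 8 rose (17.4%), beside 16.6% and 17.5% of all tested genes. The glutathione transferase gene Mgst1 fell 3.23-fold and the peroxiredoxin gene Prdx5 fell 2.43-fold. Akr1c18, an aldo-keto reductase that inactivates progesterone, was at 242, 238 and 227 CPM in mock and at 10.1, 11 and 10.1 CPM with sPrdm16 (22.7-fold lower; log2 fold change -4.50, SE 0.11, adjusted p = 3.4e-13). The groups were far apart, although 11 of 26 tested reductases and aldehyde dehydrogenases rose and 4 fell. Ftl1, ferritin light chain and the most abundant gene named here, fell from 30105 ± 1113 to 18809 ± 400 CPM. Of 56 lysosome and cathepsin genes 20 fell and 3 rose, Ctsl from 880 to 420 CPM and the galactosidase gene Glb1 from 319 to 128 CPM.

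Adhesion and cytoskeleton genes mostly fell. Of 50 cytoskeleton and actin regulators 29 fell and 4 rose, with Tmsb4x, the actin-binding thymosin, at 5132, 5375 and 6143 CPM in mock and 2316, 2433 and 2510 CPM with sPrdm16 (log2 fold change -1.20, SE 0.09, adjusted p = 1.1e-07). Its groups did not overlap. Of 19 integrins 10 fell and 3 rose, Itgam, the CD11b chain of myeloid cells, from 758 to 526 CPM, while Itgae, a partner of beta7 integrin, rose from 2.34 to 11 CPM. Cd44, a hyaluronan receptor, and Cd24a, a mucin-like antigen of neutrophils, fell 1.78-fold and 3.61-fold.

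Cytokine receptors were mixed, with 13 of 35 lower and 5 higher. Csf2rb2, the beta chain specific to IL-3 in the mouse, fell from 536 to 196 CPM. Of 23 cytokines and growth factors 12 fell and 4 rose, with Hgf, Il1rn and Igf1 down 6.08-fold, 5.52-fold and 3.5-fold. Of 28 genes of JAK-STAT signalling 10 rose and 1 fell, and Pim3 and Socs3, both targets of STAT factors, rose 2.12-fold and 1.59-fold. In the MAPK feedback list 8 of 26 fell and 3 rose, the phosphatase gene Dusp6 falling 2.27-fold and Dusp2 rising 3.77-fold. The TGF-beta, BMP and Smad list had 6 rises and 6 falls among 32 genes, 18.75% each beside 17.5% and 16.6% of all tested genes. The receptor gene Bmpr1a fell from 13.2 to 1.18 CPM. Of 26 tested sphingolipid genes 2 rose (7.69%) and 5 fell (19.2%), with a median of -0.11 that turned to 0.07 on total counts. The sphingosine-1-phosphate receptor gene S1pr1 fell 4.92-fold, and Spns2, which exports the lipid, rose from 6.4 ± 3.69 to 52.3 ± 4.90 CPM.

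Chromatin genes rose more often than they fell, with 17 of 61 polycomb, DNA methylation and histone methyltransferase genes higher and 5 lower. Dnmt3b, a de novo DNA methyltransferase, rose from 3.20 ± 1.36 to 17.2 ± 3.53 CPM, and Dnmt1, which copies methylation at replication, from 96.2 to 190 CPM. Of 16 tested cofactors of Prdm16 4 rose and 0 fell. The corepressor gene Ctbp1 was at 109 ± 2.72 and 128 ± 13.2 CPM and was not called (adjusted p = 0.0856). In the PRDM family list 3 of 10 tested genes rose, Prdm16 among them, and 1 fell, Prdm2 from 54.4 to 33.3 CPM. In the list of brown fat genes 2 of 15 tested rose and 2 fell, 13.3% each beside 17.5% and 16.6% of all tested genes.

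Other families held calls in both directions, and of all tested genes 17.5% rose and 16.6% fell. Of 52 tested calcium, potassium and sodium channel genes 13 rose and 11 fell, and of 32 ABC transporter genes, which export lipids and drugs, 7 rose and 4 fell. Among 26 amino acid carriers 8 rose and 8 fell, and among 31 genes of the hypoxia response 10 rose and 9 fell. The proteasome, with 13 of 38 genes higher and 2 lower, and splicing factors, with 18 of 56 higher and 7 lower, leaned towards rises. Purinergic and adenosine signalling, with 8 of 22 lower and 1 higher, leaned towards falls.

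Long RNA classes other than protein-coding genes had few rises. Of 234 lincRNA genes 37 fell and 10 rose (median -0.36), and of 367 antisense genes 39 fell and 12 rose (median -0.29), shares of falls below the 16.6% of all tested genes. Together with processed transcripts these classes held 0.907% to 1.15% of counts in mock and 0.706% to 0.834% with sPrdm16. Whether strand was recorded is not given in the sources used here, so reads of an antisense gene and its partner cannot be told apart. Of 11868 protein-coding genes 2387 rose and 2108 fell.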

How the data were processed

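The authors deposited expected counts per gene, which are estimated counts that need not be whole, for the 6 libraries of normal marrow cells in a table of 55487 genes. Per the submitters' processing notes the tool was DRAGEN, with no version given, and the build mm10. Per the labels' protocols, the RNeasy Mini and Nextera XT kits were used. Strand and removal of ribosomal RNA are not stated there. Counts were rounded to whole numbers, since 9.42% to 10.2% of a library's values were not whole.

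The 6 libraries were fitted in R 4.3.3 by edgeR 4.0.16, whose robust quasi-likelihood test was run after TMM scaling and its default filter on low counts (minimum 10). P-values were adjusted by Benjamini-Hochberg over 14063 genes, with a threshold of 0.05. SE is the standard error of a log2 fold change and SD the standard deviation of CPM over 3 libraries. A count of 0 was taken to allow 3 counts per library, which covers counting error only. The fit was first tested on simulated data with known changes.

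The gene lists and members were chosen with earlier results of these data known, so lists are described by counts and medians and not tested. Named genes are Prdm16, cell type markers, the 15 largest rises and falls among called protein-coding genes of at least 5 CPM whose groups did not overlap, and, per list, up to 6 called members with the smallest p and up to 3 of the most abundant that were not called. The choice among them was made with the values in view, and some genes are not reported here. Alternatives were RLE scaling, total counts, no filter, 5 CPM in 3 libraries, DESeq2 1.42.0, limma-voom (limma 3.58.1), a blocked fit on the replicate number, a minimum fold of 1.5, protein-coding genes only, the 20 most abundant genes left out, and each library left out. Promoter windows are from RefSeq, build GRCm38.p6, matched by symbol.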

Additional observations from a re-analysis of the deposited data

How the results depend on the processing

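Under the 16 alternatives the counts of 2463 rises and 2335 falls stayed within 1.5 times their size, except that 642 genes rose and 644 fell when tested against a fold of 1.5, and 1501 fell on total counts. Leaving out each library gave 1827 to 2391 rises and 1779 to 2135 falls. With the replicate number as a block, 2403 genes rose and 2228 fell. Deviations of same-numbered libraries correlated at 0.071, -0.0056 and -0.0046, so the numbers were not taken to pair the libraries. The structural RNA share did rise with the replicate number in both groups. It was 1.90%, 2.39% and 2.46% in mock and 1.41%, 1.70% and 2.04% with sPrdm16. The mitochondrial protein-coding share had the same order, but mitochondrial ribosomal and transfer RNAs count in the structural share, so these shares are not independent. The source of that order was not tested. The block ended no call among the named genes and added that of Slc29a1 (0.360). Of 217 named and tested genes, 30 lost their call under at least 1 alternative, 29 of them when tested against a fold of 1.5. Calls were gained on total counts by Cd34, Cst3, Ctbp1, H2-DMa, Hpgds and Slc29a1. Among genes that were not called, signs turned on total counts for B2m (0.046), Itgax (0.063), Mmp8 (0.133) and Pcna (0.147). Leaving out each library gave log2 fold changes of -0.029 to 0.150 for Ctsg and -0.123 to 0.013 for Mmp8. Among lists in the text, medians turned on total counts for myeloid transcription factors (0.014), p53 targets (0.033), cholesterol genes (0.152), sphingolipid genes (0.069) and brown fat genes (0.068, also 0.045 at 5 CPM and 0.004 with limma-voom), and for B cell genes with protein-coding genes only (-0.160). The setting of protein-coding genes only drops Ighm, an immunoglobulin constant gene, from the 4 tested genes of the B cell list. Beyond that, and the shift of 0.17 that total counts give every gene, the cause was not tested. Limma-voom moved the sizes of Prdm16, Hbb-y, Ccdc102a, S1pr3, Cd79b, Tie1, Alox15, Tpsg1, Krt83, Cobl, Ccr10 and Tph1 by over 1.5 times. Fitted sizes of genes near 0 counts in a group are imprecise at this depth, and 3 libraries per group limit small changes.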
